A study of Mus musculus with 2 samples.

Results

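The genes described here build and feed MHC class I, the complex that displays peptides from inside the cell. They were taken by symbol from the expression values of 2 skin wounds. All 10 were found among the 24346 genes listed, and all 10 had at least 1 FPKM in both wounds. They are the heavy chains H2-K1 and H2-D1, the light chain B2m, the peptide transport and loading genes Tap1, Tap2 and Tapbp, the immunoproteasome subunits Psmb8, Psmb9 and Psmb10, and the transactivator Nlrc5. The wounds came from C57BL/6J neonates, 1 library from WT mice and 1 library from PU.1-/- mice (labelled PU.1_KO), each harvested 24 h after wounding of the dorsal skin of 1-day-old littermates. The methods describe full-thickness incisions, whereas the design text speaks of excisional wounds. PU.1, encoded by Spi1, is a transcription factor needed to form several kinds of white blood cell. The study describes these animals as lacking T cells, mast cells, neutrophils and macrophages. The deletion is present in every cell of the animal, and how many pups entered each library is not given. With 1 library per genotype there is no replicate error and no test across animals, so that every difference below is a difference between these 2 libraries.

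Nearly all nucleated cells carry MHC class I. Proteasomes cut cytosolic proteins into peptides, the TAP1 and TAP2 transporter moves these into the endoplasmic reticulum, and tapasin (Tapbp) holds the transporter next to an empty heavy chain until a peptide binds. Interferon makes cells replace the standard catalytic subunits of the proteasome with those of the immunoproteasome, and leukocytes carry the immunoproteasome without that stimulus. NLRC5 is a cofactor that acts at class I promoters.

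FPKM counts the fragments of a gene per kilobase of transcript and normalized to the mapped fragments of the library. What 1 read is worth was read from low genes, whose values move in whole-read steps, and gave an estimated depth of 1.38e+07 fragments for WT and 1.58e+07 for PU.1-/-. Ratios are given with their 95% counting intervals (exact binomial, from the estimated reads), which hold no error between animals. Spi1 had 35.4 FPKM (WT) and 1.45 FPKM (PU.1-/-). Of the other markers of sample make-up, all 10 macrophage markers were at least 2-fold lower in PU.1-/-, with a summed level of 835 FPKM against 5.74 FPKM, and Tyrobp and C1qb were listed at 0 there. Mast cell markers were lower for 9 of 10 genes, with sums of 750 and 14.2 FPKM. Neutrophil markers were lower for 7 of 9, with sums of 12564 and 3676 FPKM, most of it S100a8 and S100a9. S100a8 was listed at 6600 and 2129 FPKM and S100a9 at 5311 and 1516 FPKM. In PU.1-/- 3 of the 9 were listed at 0, Ngp, Retnlg and Ltf, which had 311, 215 and 37.1 FPKM in WT. Other neutrophil markers remained in PU.1-/-. Camp was listed at 77.6 FPKM (WT) and 23.9 FPKM (PU.1-/-), and Cxcr2 at 11.2 and 7.17 FPKM. T cell markers were sparse in both wounds, with sums of 4.54 and 1.11 FPKM, and Cd8a was listed at 0 in both. Of the dendritic and Langerhans cell markers 2 of 10 were lower and 1 was higher, and Cd207 was listed at 0 in both wounds. Fibroblast sums were 3216 and 3752 FPKM, keratinocyte sums 10414 and 12002 FPKM, endothelial sums 238 and 262 FPKM, and skeletal muscle sums 8412 and 14276 FPKM. The wounds also differed in sex chromosome transcripts. The 4 Y-linked genes examined lay between 2.16 and 38.5 FPKM in WT and at 0 in PU.1-/-, and Xist was listed at 0 and 9.48 FPKM, so that genotype and sex cannot be told apart. In bulk tissue, fewer cells of a type and less RNA per cell cannot be told apart either.

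The stretches of DNA just before a transcription start of each class I chain gene are shown first, since these 3 genes had close WT to PU.1-/- ratios. RefSeq sequences of GRCm38.p6 (the assembly of mm10) were found for 8 of the 10 members, and Tap2 and Nlrc5 had no entry. Each line is the 250 bases before the transcription start, 5′ to 3′ on the strand of the gene. Capitals mark matches to the IRF core (AANNGAAA, the centre of interferon-responsive elements) or to the NF-κB consensus, on either strand.
H2-K1, chr17:34000348-34000597 (minus strand): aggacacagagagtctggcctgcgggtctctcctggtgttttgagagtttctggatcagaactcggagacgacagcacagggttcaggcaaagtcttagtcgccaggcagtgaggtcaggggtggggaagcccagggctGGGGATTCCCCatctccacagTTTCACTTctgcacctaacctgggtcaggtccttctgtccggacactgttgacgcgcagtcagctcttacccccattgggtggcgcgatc
H2-D1, chr17:35262844-35263093 (plus strand): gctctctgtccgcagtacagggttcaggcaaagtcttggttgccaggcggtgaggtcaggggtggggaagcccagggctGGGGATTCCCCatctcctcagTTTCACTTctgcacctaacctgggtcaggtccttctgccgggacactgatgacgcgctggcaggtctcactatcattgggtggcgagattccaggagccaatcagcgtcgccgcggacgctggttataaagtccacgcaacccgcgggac
B2m, chr2:122147437-122147686 (plus strand): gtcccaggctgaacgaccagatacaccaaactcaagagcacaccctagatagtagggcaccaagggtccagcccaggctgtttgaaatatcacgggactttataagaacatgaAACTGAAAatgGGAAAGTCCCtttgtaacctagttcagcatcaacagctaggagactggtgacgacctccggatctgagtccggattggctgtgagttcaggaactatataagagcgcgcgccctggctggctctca

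H2-K1 and H2-D1 share the same arrangement, an NF-κB match followed by an IRF core, and 166 of 190 aligned bases (87.4%) are identical. In each of these genes the NF-κB letters match in 2 overlapping registers. B2m carries both elements in the opposite order. The IRF core starts 90 bases before the start in H2-K1, 150 bases in H2-D1 and 137 bases in B2m, and no IRF core overlaps an NF-κB match. H2-K1 has 2 starts in RefSeq, and the first listed was used. The printed H2-K1 stretch lies before that start but within the span of the gene, 33996012 to 34000619. It aligned best with that of H2-D1 at an offset of 60 bases, so their difference in distance depends on the start used. Of the 8 member promoters, 3 held an IRF core, against 21.3% of all 32851 promoters of this length, and the same 3 held an NF-κB match, against 7.25%. H2-K1 and H2-D1 are among these 3, and their stretches are largely identical, so they are not separate counts. The letters GAGGAA, a core that PU.1 binds, were in none of the 8, against 23.3% of all promoters. The CRE core TGACG was in 5 of 8 (17.8% of all), CCAAT in 6 of 8 (33.8% of all), and the interferon-gamma element TTCNNNGAA in 1 of 8, Psmb8 (7.02% of all). Tap1 and Psmb9 are transcribed from the same interval, so their CRE and CCAAT matches are the same sites counted for both genes. These are matches of letters, and no binding was measured.

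Tap1 and Psmb9 are transcribed away from each other from starts 225 bases apart. The interval is printed because the ratios of this gene pair, given below, differed. It holds no IRF core and no NF-κB match in these letters, and therefore no capitals.
Tap1 and Psmb9, chr17:34187331-34187555 (strand of Tap1): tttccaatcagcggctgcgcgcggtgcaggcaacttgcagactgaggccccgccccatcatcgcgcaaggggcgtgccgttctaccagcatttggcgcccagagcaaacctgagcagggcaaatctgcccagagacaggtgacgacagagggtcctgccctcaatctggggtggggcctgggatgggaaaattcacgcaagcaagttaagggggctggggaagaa

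Class I expression was lower in the PU.1-/- wound for the chains and for the immunoproteasome, and less so for peptide transport. Of the 10 members, 3 were at least 2-fold lower (H2-K1, Psmb8 and Psmb9), a share to be read against 4.34% of all 24346 listed genes and 1.62% of the 12443 that reached 1 FPKM in both wounds. None of the 10 was at least 2-fold higher, against 2.32% of all listed genes. At a ratio of 1.5, 6 of the 10 were lower, against 7.67% of all listed genes and 5.08% of those with at least 1 FPKM in both. As a log2 ratio of PU.1-/- over WT, the members had a median of −0.84, and the 16298 genes that reached 0.1 FPKM in either wound had a median of −0.01. No member approached the near-complete loss of the macrophage genes, and the member values ran from 35.9% to 109% of WT.

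**Figure D1:**
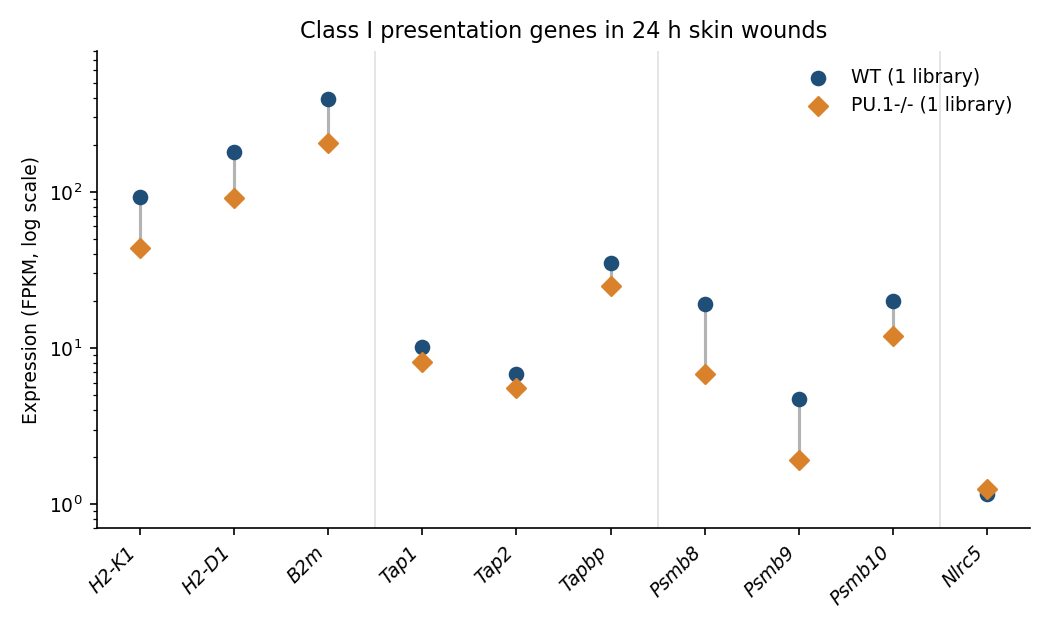
Expression of the 10 members in FPKM on a log axis, with WT as circles and PU.1-/- as diamonds, 1 library each, joined by a line per gene. The chains sit highest and Nlrc5 lowest in both wounds, and the longest line is that of Psmb8, from 19.03 to 6.83 FPKM.

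The 3 chain genes were the most abundant members and had ratios close to each other. B2m, the light chain shared by all class I molecules, lies on chromosome 2 from 122147687 to 122153082. Its values of 392 FPKM (WT) and 204 FPKM (PU.1-/-) were the 241st and 419th highest values of the libraries. Its WT over PU.1-/- ratio was 1.92, with an interval of 1.82 to 2.03. H2-D1, a classical heavy chain on chromosome 17 from 35263094 to 35267497, was listed at 179 and 90.6 FPKM, a ratio of 1.97 (1.88 to 2.07). H2-K1, the other classical heavy chain of this strain, on chromosome 17 from 33996012 to 34000619, was listed at 92.4 and 43.5 FPKM, a ratio of 2.12 (1.96 to 2.30). The 3 intervals overlap and each contains 2, so the 2-fold rule, which counts H2-K1 and leaves out H2-D1 and B2m, divides genes that counting error does not separate. The proportions among the chains were also close. B2m was listed at 1.45 times the sum of both heavy chains in WT and at 1.52 times in PU.1-/-, and H2-D1 at 1.93 and 2.08 times H2-K1. Reads of the heavy chains can be shared with related genes. Of all 75-base windows of the transcripts, 1.55% of those of H2-K1 and 6.90% of those of H2-D1 also occur in a transcript of another gene, and none of those of B2m do. All shared windows of H2-K1 occur in H2-D1, and those of H2-D1 occur most often in H2-Q1 (5.42% of its windows). H2-L, a chain close to H2-D1 that C57BL/6 mice are known to lack, was listed at 29.3 and 15.3 FPKM. No RefSeq-linked transcript of H2-L was found in the annotation used here, so windows shared with it may not be counted.

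The immunoproteasome subunits included the largest differences among the members. Psmb8 (LMP7, chymotrypsin-like), on chromosome 17 from 34198195 to 34201454, was listed at 19.03 FPKM (WT) and 6.83 FPKM (PU.1-/-), with a ratio of 2.79 (2.30 to 3.37) from about 375 and 155 reads. It is the only member whose counting interval lies wholly above 2. Psmb9 (LMP2), on chromosome 17 from 34182030 to 34187330, was listed at 4.74 and 1.90 FPKM. With about 75 and 35 reads, its ratio of 2.49 had the widest interval, 1.63 to 3.79. Psmb10 (MECL-1, trypsin-like), on chromosome 8 from 105935728 to 105938392, was listed at 19.96 and 11.9 FPKM, a ratio of 1.67 (1.40 to 2.005), and its interval lies below that of Psmb8. In WT, Psmb10 and Psmb8 had levels that do not differ beyond counting error. In PU.1-/-, Psmb10 was above Psmb8.

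**Figure D2:**
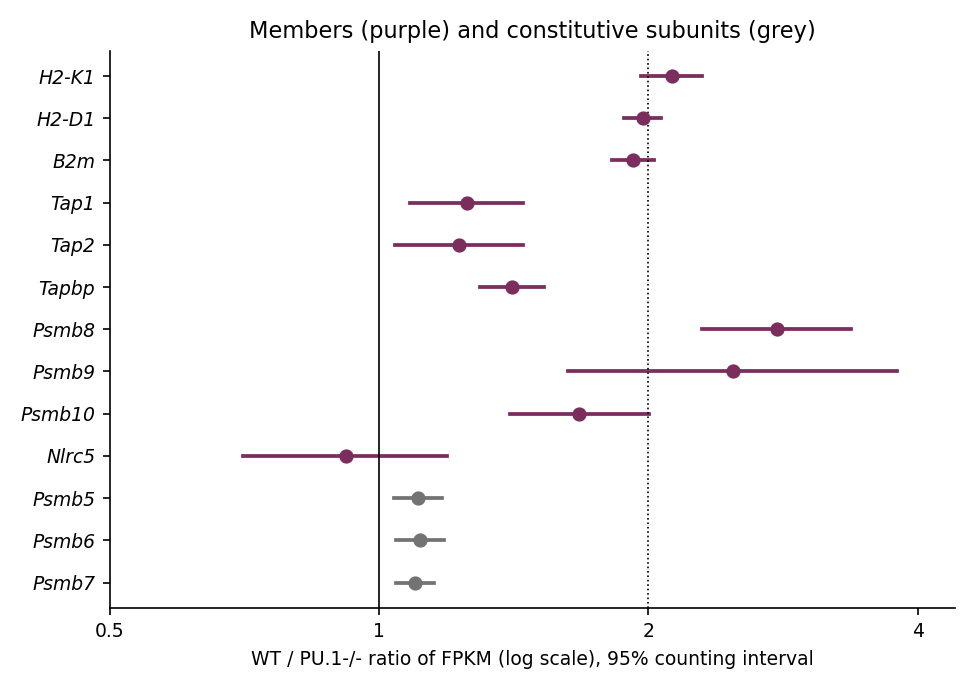
WT over PU.1-/- ratio of FPKM on a log axis for the 10 members (purple) and for the constitutive subunits Psmb5, Psmb6 and Psmb7 (grey), with 95% counting intervals as bars. The dotted line marks a ratio of 2, which the interval of Psmb8 clears and those of the chains include, while the grey points sit between 1.10 and 1.11.

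Each immunoproteasome subunit takes the place of a constitutive one in the core particle, so the pairs were compared within each wound, where scaling between libraries does not enter. Psmb5, the counterpart of Psmb8, was listed at 209 and 188 FPKM in the WT and PU.1-/- wounds. Psmb8 amounted to 9.13% of Psmb5 in WT and 3.62% in PU.1-/-. Psmb6, the counterpart of Psmb9, was listed at 246 and 222 FPKM, and Psmb9 amounted to 1.92% and 0.859% of it. Psmb7, the counterpart of Psmb10, was listed at 238 and 217 FPKM, and Psmb10 amounted to 8.37% and 5.48% of it. In both wounds the constitutive form exceeded the immune form in all 3 pairs, by more than 10-fold. Psmb5 overlaps the microRNA gene Mir686 in the annotation. The 11 further core subunits, among them Psmb3 with 296 and 260 FPKM, had log2 ratios from −0.33 to −0.01, all below 0. The 18 subunits of the regulatory cap, which feeds substrates into the core, had a median log2 ratio of 0.01 and a highest level for Psmd8, 195 FPKM in each wound. None of these 32 proteasome genes was 2-fold lower or higher.

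**Figure D3:**
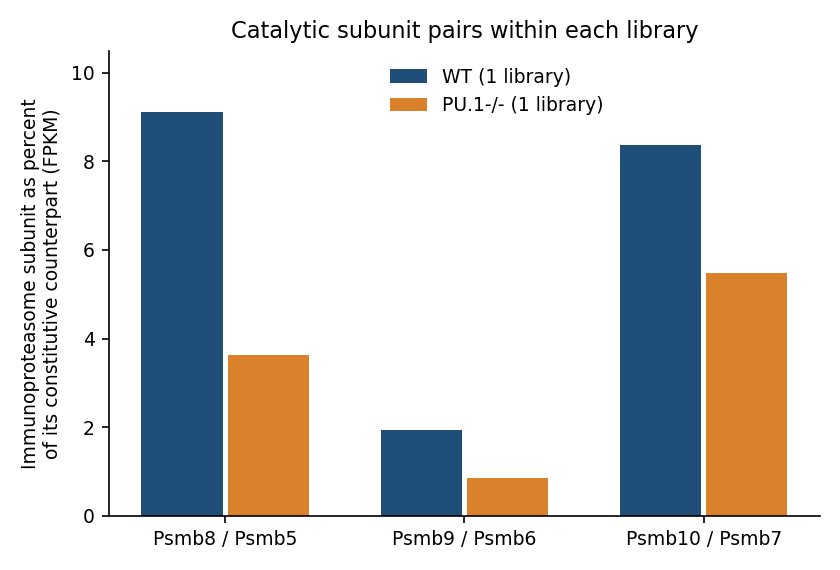
FPKM of each immunoproteasome subunit as a percent of its constitutive counterpart, for WT (blue) and PU.1-/- (orange), 1 library each and bars starting at 0. The Psmb8 pair goes from 9.13% to 3.62%, the Psmb9 pair from 1.92% to 0.859% and the Psmb10 pair from 8.37% to 5.48%.

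The peptide transport and loading genes had smaller ratios. Tapbp, the gene of tapasin, on chromosome 17 from 33919478 to 33929290, was listed at 35.1 FPKM (WT) and 24.95 FPKM (PU.1-/-), with a ratio of 1.41 (1.30 to 1.53). Tap1, on chromosome 17 from 34187556 to 34197225, was listed at 10.2 and 8.16 FPKM, a ratio of 1.25 (1.08 to 1.45). Tap2, on chromosome 17 from 34204479 to 34216321, was listed at 6.82 and 5.56 FPKM, a ratio of 1.23 (1.04 to 1.45). Tap1 was listed at 1.497 times Tap2 in WT and at 1.469 times in PU.1-/-. All 3 intervals lie above 1 and below 2.

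Psmb9, Tap1, Psmb8 and Tap2 lie side by side in this order within 34292 bases of the class II region of chromosome 17, and their ratios did not follow position. Psmb8 and Psmb9 had the largest ratios of the 10 members, while Tap2 and Tap1 had the smallest above 1. Across the 225 bases between their starts, Psmb9 had a ratio of 2.49 (1.63 to 3.79) and Tap1 a ratio of 1.25 (1.08 to 1.45), and these intervals do not overlap. In the order of levels, Psmb8 stood above Tap1 in WT, at 19.03 against 10.2 FPKM. In PU.1-/- it was listed at 6.83 FPKM against 8.16 FPKM for Tap1, levels that do not differ beyond counting error.

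Nlrc5, on chromosome 8 from 94434335 to 94527272, was the least abundant member and the only one listed higher in PU.1-/-. It had 1.15 and 1.26 FPKM in the WT and PU.1-/- wounds, a ratio of 0.919 with an interval of 0.705 to 1.19, from about 107 and 134 reads. No difference was detectable at this depth. The interval lies below a ratio of 2. H2-K1, whose promoter NLRC5 is known to act at, had a ratio of 2.12. A relation between the levels of Nlrc5 and of the chains was not tested.

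Of 165 further genes in lists around the pathway, taken whole, 23 were at least 2-fold lower and 2 higher in PU.1-/-, counts to be read against the 4.34% lower and 2.32% higher of all listed genes. The 23 include 7 of 9 class II genes and 7 of 18 genes of T cell, NK cell and myeloid receptors, both described below, so the count is not one of class I genes alone. General loading and trimming factors, chaperones that class I shares with other proteins, had none of 17 called and a median log2 ratio of −0.10. Calreticulin (Calr), the most abundant, was listed at 388 and 341 FPKM. Among the proteasome activators and assembly factors none of 11 was called. The assembly factor Pomp was listed at 234 and 192 FPKM, and the interferon-inducible activator subunits Psme1 and Psme2 at 81.7 and 70.8 FPKM and at 126 and 87.3 FPKM. Psme2 had a ratio of 1.45 (1.33 to 1.57).

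Of the non-classical and class I-like chains, 4 of 29 were lower and 1 was higher, and 10 of the 29 under 0.1 FPKM in both wounds. H2-T22, a chain that gamma-delta T cells recognize, was listed at 7.25 and 2.23 FPKM, a ratio of 3.26 (2.38 to 4.51). H2-T24 was listed at 2.27 and 1.05 FPKM (ratio 2.16, 1.39 to 3.40) and H2-Q7 at 1.25 and 0.0681 FPKM, about 23 reads and 1 read. Others were closer to 1. H2-T23 (Qa-1), which presents leader peptides to NK cell receptors, was listed at 44.1 and 34.3 FPKM, and Fcgrt, the neonatal Fc receptor chain that also pairs with B2m, at 45.02 and 28.7 FPKM, a ratio of 1.57 (1.42 to 1.73). H2-Q6 was listed at 0.000212 FPKM in WT, less than 1 whole read is worth, so values of these close relatives, between which reads can be divided, are uncertain.

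Among the factors that act at class I promoters, 1 of 18 was called, a share near the 4.34% of all listed genes. Irf8, a factor of myeloid cells, was listed at 2.92 and 0.523 FPKM, a ratio of 5.59 (3.51 to 9.29). Irf7, a factor of the type I interferon response, was just short of the 2-fold rule, at 22.5 and 11.6 FPKM with a ratio of 1.94 (1.71 to 2.21). Irf1 was listed at 11.2 and 13.1 FPKM, Rfx5, part of the complex that carries NLRC5, at 2.51 and 2.47 FPKM, and Rela at 36.2 and 37.3 FPKM. Of the interferon ligands and receptors, 1 of 15 was called, the feedback inhibitor Socs1, with 9.96 and 4.61 FPKM, a ratio of 2.16 (1.81 to 2.58). Ifng was listed at 0 in both wounds, Ifngr1 at 43.3 FPKM in each, and Jak1 at 52.1 and 55.2 FPKM.

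Genes that respond to interferon-gamma went both ways, with 5 of 19 lower and 1 higher. The list includes the members Psmb8 and Psmb9, which are among the 5, and Tap1, which was not called. Cd274, the inhibitory ligand PD-L1, was listed at 3.61 and 1.28 FPKM, a ratio of 2.82 (2.14 to 3.82). Cxcl10, a chemokine for T cells, was listed at 5.196 FPKM (WT) and 25.1 FPKM (PU.1-/-), the opposite direction. The list had a median log2 ratio of −0.29.

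Class II presentation, carried by dendritic cells, macrophages and B cells, showed larger differences than class I, with 7 of 9 genes lower. Ctss, the protease that trims the invariant chain, was listed at 63.1 and 0 FPKM. The invariant chain Cd74 was listed at 11.2 and 0.372 FPKM, H2-Aa at 7.66 and 0 FPKM, H2-Ab1 at 6.91 and 1.28 FPKM and H2-Eb1 at 3.02 and 0.129 FPKM. The list's summed level in PU.1-/- was 3.67% of that in WT, where the 3 class I chains had 51.0%. The class II sum is not one of chains alone, since the protease Ctss made up 63.1 of its 96.0 FPKM in WT and 0 of its 3.52 FPKM in PU.1-/-. Of 18 genes of T cell, NK cell and myeloid receptors, some of which bind class I and others of which are not known to, 7 were lower. Of the 18, 9 were under 0.1 FPKM in both wounds, where the floor lets no gene be called. Lilrb4a, an inhibitory receptor of myeloid cells, and Pirb, an inhibitory receptor that binds class I, were listed at 53.7 and 12.0 FPKM in WT and at 0 in PU.1-/-. Pira2 was listed at 1.801 and 0 FPKM and the T cell receptor subunit Cd3g at 1.24 and 0 FPKM, about 14 and 0 reads. The macrophage, mast cell, neutrophil and T cell marker sums given above moved in the same direction as the members. The skeletal muscle sum moved the opposite way, from 8412 FPKM (WT) to 14276 FPKM (PU.1-/-), as did the fibroblast, keratinocyte and endothelial sums. The wounds also differed in sex chromosome transcripts. What part any of these had in the member differences was not tested.

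**Figure D4:**
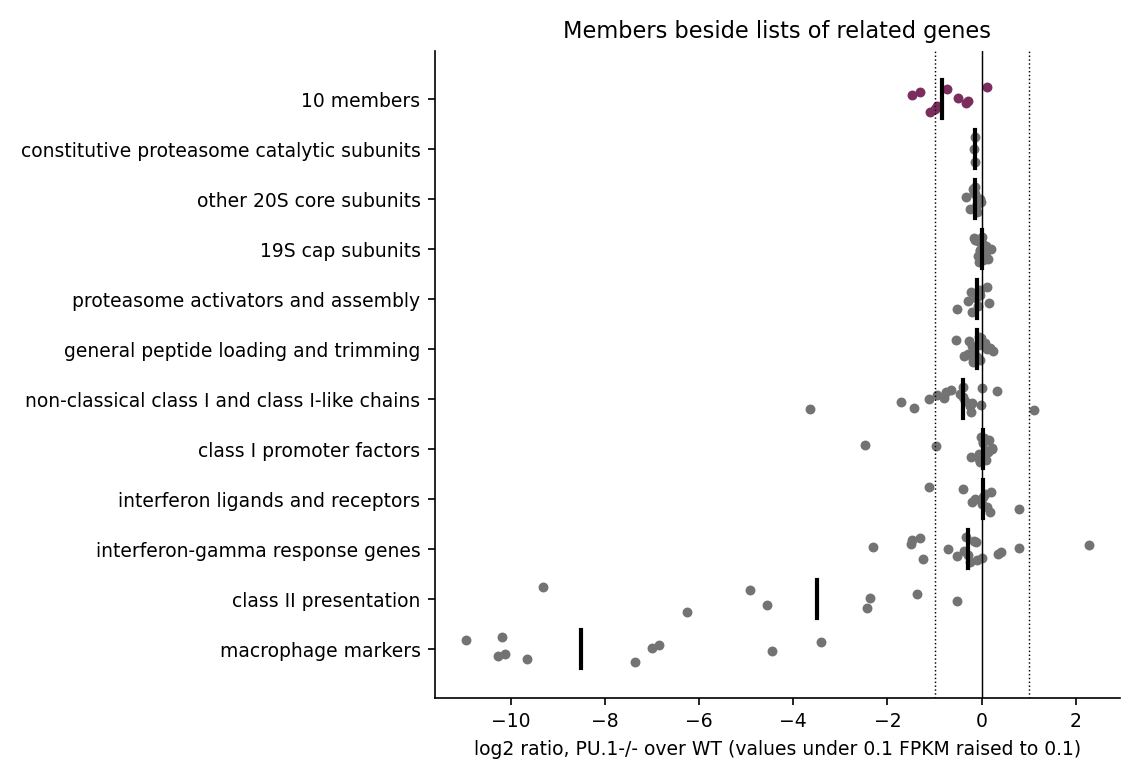
Log2 ratio (PU.1-/- over WT) of each gene that reached 0.1 FPKM in either wound, by list, with values under 0.1 FPKM raised to 0.1, a black bar at each list's median, a solid line at 0 and dotted lines at 2-fold. The members (purple, median −0.84) sit between the proteasome lists, which cluster near 0, and the class II genes (median −3.49) and macrophage markers (median −8.51). The members Psmb8, Psmb9 and Tap1 are also drawn in the list of interferon-gamma response genes.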

How the data were processed

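Total RNA of the wounds was made into stranded mRNA libraries. Per the study's methods, the authors mapped the reads to mm10 and deposited FPKM values calculated with Cuffnorm 2.2.1. The submitters' processing notes name TopHat2 2.1.1, Bowtie2 2.2.8, SAMtools 0.1.18 and Cuffdiff 2.2.1. Not given in the sources used here are the annotation, the read filters and the handling of reads that map to several genes.

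Groups were taken from the genotype labels. Values under 0.1 FPKM were raised to 0.1, ratios were taken, and genes were counted at a ratio of at least 2. No p-value was computed, since each genotype has 1 library. Among 5395 genes under 3 FPKM in WT and above 0 in both, 470 shared 1 WT over PU.1-/- ratio, 1.149, within 0.05%, which was taken as equal read numbers. For 1190 low genes of at least 600 bases whose values stood in a ratio of whole numbers up to 6, the depth was calculated from FPKM and the GENCODE M21 transcript length less 200 bases, and the most frequent depth (465 genes) was used. Reads of a member were estimated from its longest transcript linked to RefSeq, so an interval is too narrow where the authors' transcript was shorter. The functions were tested on simulated libraries. H2-K1 has 2 starts in RefSeq, and the first listed was used. Positions were taken by symbol from RefSeq (GRCm38.p6).

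The members and lists were chosen with earlier results of these data known. Named are all members, Spi1, Psmb5, Psmb6, Psmb7, in each pathway list the most abundant gene in WT and up to 5 called genes of at least 1 FPKM, and from marker lists at most the 2 most abundant. Psme1, Psme2, Irf1, Irf7, Rfx5, Ifng, Ifngr1, H2-T23, H2-L, H2-Q6, Cd8a, Cd207, Ngp, Retnlg, Ltf, Camp, Cxcr2 and Mir686 were added after their values were seen. The values of 1 further gene that was to be named are not reported here. Alternatives varied the floor, a pseudocount, a filter, the scaling, the fold threshold and the joining of related chains. Calculations used matplotlib 3.10.9, scipy 1.17.1, numpy 2.4.6, pandas 2.3.3 and Python 3.11.15.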

Additional observations from a re-analysis of the deposited data

How the results depend on the processing

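The number of members lower by at least 2-fold was 3 in 8 of the 9 alternatives at that threshold and 2 with 1 FPKM added to each value, where Psmb9 had a log2 ratio of −0.98. A threshold of 1.5 gave 6 members and a threshold of 3 gave 0. The median log2 ratio of the members stayed between −0.84 and −0.74, and all 70 single-member values under the alternatives stayed within their counting intervals. The value of −0.74 came only from the settings that summed heavy chains, where 9 genes remained, and the number of 3 there is out of 9. With all 10 members the median stayed between −0.84 and −0.78. The floors at 0.01 and 1 FPKM and the filter at 1 FPKM could not change any member, since all 10 had at least 1 FPKM in both wounds. These settings are counted among the 9 alternatives and the 70 values, and for the members they test nothing. The scalings shifted all members by 0.01 to 0.06 on the log2 scale. The sum of H2-K1, H2-D1 and H2-L, added after the data were seen, left the number at 3. The changes of the subunit pairs kept their direction with 1 FPKM added. Of the 165 pathway genes, the number lower went from 23 to 12 and the number higher from 2 to 1 with values under 1 FPKM raised to 1, since low genes then no longer reach the threshold, and a threshold of 1.5 gave 30 lower and 4 higher. Counting error does not include the spread between animals, which was not measured here. No paired analysis was possible because each genotype has 1 library.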
